A study of Mus musculus with 62 samples.

Results

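BBN963 is a line of mouse bladder cancer cells that the study treats as basal, and 7 of the 62 samples of the study compared its messenger RNA after 72 h of rosiglitazone plus trametinib with that after 72 h of DMSO, the solvent. These libraries belong to the second of the study's cell experiments: 4 libraries had received both drugs and 3 had received DMSO, and each was chosen by its label, not by any measured value. The labels describe all of them as wild-type C57bl/6 cells of 1 cell line and give no dose, passage or culture number. Libraries of the same experiment at 24 h (3 DMSO, 4 combination) and of a first experiment at 72 h (5 each of DMSO, rosiglitazone, trametinib and the combination) served for comparison. Nothing states whether replicates were separate cultures, so every p-value measures only the spread between these libraries.

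Trametinib blocks MEK, the kinase that phosphorylates and activates ERK. Active ERK enters the nucleus, induces immediate early transcription factors and D-type cyclins that carry the cell into S phase, and induces its own inhibitors, the dual-specificity phosphatases (Dusp) and the Sprouty and Spred proteins. Rosiglitazone is a ligand of PPARG, a nuclear receptor that works as a dimer with RXR, switches on genes of fatty acid handling in adipocytes and takes part in the luminal differentiation of urothelium. In basal bladder cancers ERBB signalling through MEK is known to be active and PPARG activity to be low.

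Expression was measured as deposited normalised read counts, that is, estimated reads divided by 1 size factor per library. Changes are log2 fold changes of value + 1 with their standard error (SE), tested with limma over 13640 genes and called at an adjusted p under 0.05; values are not scaled by gene length, so levels were compared between samples and never between genes. The DMSO libraries held 8580882 to 29450743 recovered reads and the combination libraries 5202019 to 14823880. The first principal component held 66.6% of the variance and placed the 3 DMSO libraries between -64.77 and -63.17 and the 4 combination libraries between 41.5 and 52.38. On the second component (9.82%) combination replicate 4 stood apart, at -47.36 against 11.39 to 20.07 in the other 3. Mitochondrial transcripts made up 2.62 to 2.79% of reads under DMSO and 5.73 to 6.35% under the combination, and their part in the results was not tested.

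The cells expressed the epithelial genes Krt8, Krt18, Cdh1 and Epcam (mean values of 4812, 3989, 3378 and 2556 under DMSO), while the defining markers of the labelled basal identity were unequal. Of 17 genes on the basal list 12 were testable, among them Cd44 and Cdh3, basal surface proteins at 4307, 4075 and 4784 and 548, 559 and 549 under DMSO. Krt5, the basal keratin, had values of 0, 2.03 and 0 under DMSO and 0.557, 0, 0 and 0 under the combination. Trp63, the basal master regulator, was at 2.35, 2.61 and 3.87 and 0.557, 0, 1.44 and 1.58. Krt14, the partner of Krt5, was present at 334, 357 and 321 and 404, 296, 179 and 222. Of markers of other cell types, Col3a1, Lum, Ms4a1 and Emcn were at 0 in all 7 libraries. Most fibroblast, immune, endothelial, adipocyte and smooth muscle markers stayed under the test's minimum value: 3 of 10, 2 of 10, 1 of 8, 2 of 8 and 1 of 8 were testable. Summed fibroblast markers ranged from 47.1 to 70.6 under DMSO and from 67.4 to 82.4 under the combination, and adipocyte markers from 102 to 126 and from 97.9 to 128. Smooth muscle markers ranged from 36.6 to 48.3 and from 70.2 to 82.4, and endothelial markers from 14.1 to 24.2 and from 18.4 to 28.4. The immune list went from 46.4 to 50.1 up to 222 to 232, carried by Cd68, a lysosomal glycoprotein best known from macrophages, which had values of 32.1, 32 and 30 and 205, 208, 210 and 224.

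After 72 h of the combination most measurable genes had changed. Of 13640 genes tested, 72.4% were called, 4956 higher (36.3%) and 4918 lower (36.1%). The values of the DMSO and combination libraries did not overlap in 70.9% of all genes tested. The median log2 fold change over all genes was -0.01, and a count of called members of any list is read below against these shares. The plot of mean level against fold change shows the whole table.

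**Figure D1:**
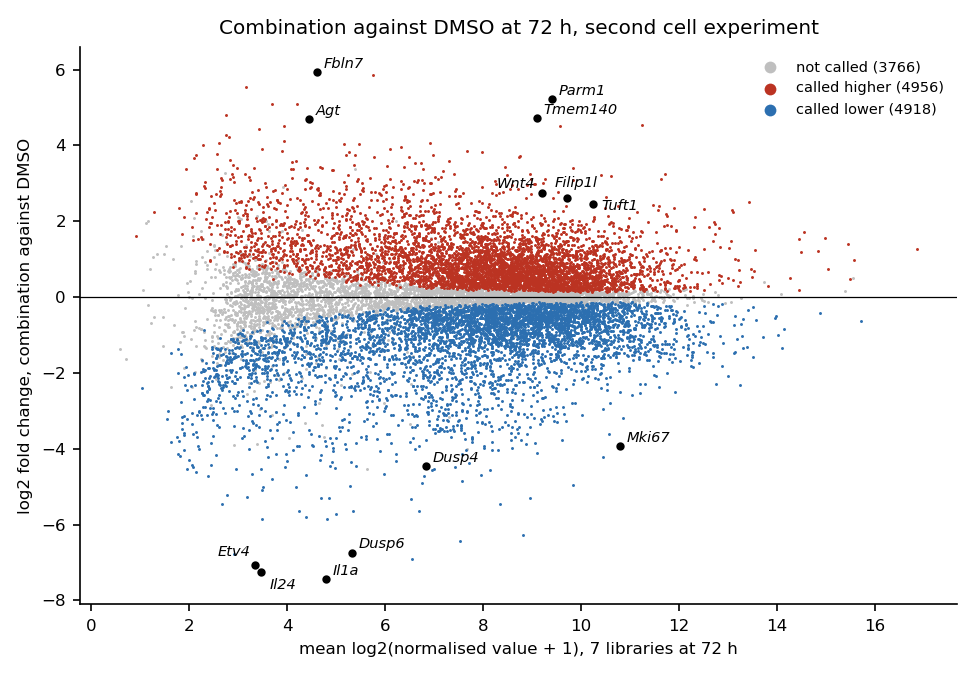
Each point is 1 of 13640 genes; the x axis is the mean log2(normalised value + 1) over the 7 libraries at 72 h and the y axis the log2 fold change, combination against DMSO, with genes called higher in red, called lower in blue and the others in grey. Named points are the 5 marker genes and the 4 largest named changes in each direction, from Il1a at -7.43 to Fbln7 at 5.93.

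The 5 genes given as markers of the experiment separated the groups completely. Dusp4, a nuclear phosphatase that inactivates ERK, had normalised values of 690, 626 and 687 under DMSO and 35.1, 29.7, 25.9 and 28.4 under the combination. It fell 21.8-fold (-4.45 ± 0.11 SE, adjusted p = 2.06e-16). Mki67, the antigen of cycling cells, went from 7921, 7482 and 10319 to 546, 536, 607 and 526. All 4 treated libraries lay below every control library, and the fall was 15.3-fold (-3.94 ± 0.09 SE, adjusted p = 1.63e-16). Wnt4, a secreted Wnt ligand, went from 205, 230 and 164 to 1372, 1330, 1358 and 1307, a rise of 2.75 ± 0.09 SE, adjusted p = 1.44e-14. Filip1l, a regulator of filamin and motility, went from 261, 307 and 318 to 1940, 1637, 1822 and 1877 and Tuft1, first described in enamel, from 446, 470 and 445 to 2921, 2506, 2352 and 2271. Their log2 fold changes were 2.62 ± 0.08 and 2.46 ± 0.08, and in neither did the groups overlap. On GRCm38.p6 these genes lie at chromosome 8, 34807610 to 34819894 (Dusp4), chromosome 7, 135689784 to 135716450 (Mki67) and chromosome 16, 57353277 to 57572804 (Filip1l).

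**Figure D2:**
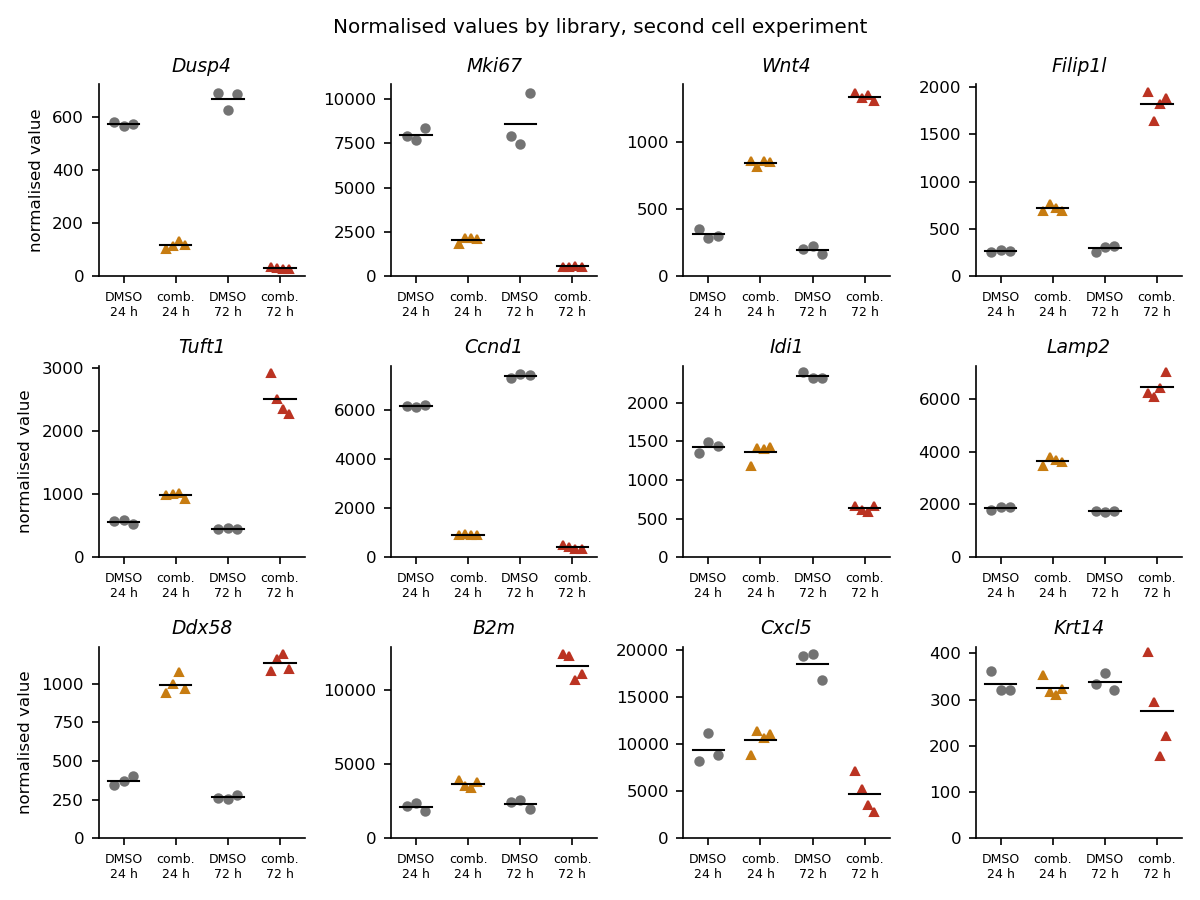
Normalised values of 12 genes in each of the 14 libraries of the second experiment, linear axes from 0; circles are DMSO and triangles the combination, at 24 h and 72 h, and bars are group means. In each panel the 4 combination libraries at 72 h lie apart from the 3 DMSO libraries at 72 h, except for Krt14, whose groups overlap.

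The ERK feedback inhibitors, which ERK itself induces, were mostly lower. Of 14 members tested 11 were lower and 3 higher, with a median log2 fold change of -2.57. Dusp6, the cytoplasmic ERK phosphatase, had values of 590, 573 and 569 under DMSO and 6.13, 4.4, 2.88 and 4.73 under the combination, and fell 107-fold (-6.74 ± 0.22 SE, adjusted p = 1.07e-14). Spred2, a membrane inhibitor of RAS signalling, went from 998, 932 and 1046 to 55.7, 72.6, 66.2 and 47.3 (-4.03 ± 0.11). Of the Sprouty adaptors, Spry2 went from 138, 134 and 142 to 9.47, 7.69, 10.1 and 11 (-3.73 ± 0.20) and Spry1 fell by less (-2.49 ± 0.11). Spry4 held 1 read in the 4 combination libraries together, against 293 under DMSO. Its ratio of combination to DMSO was 0.00487 (95% exact interval 0.000123 to 0.0273, counting error only). Dusp5, Spred1, Spred3 and Dusp7 fell by 3.84, 2.66, 2.25 and 1.50 on the log2 scale. Dusp1, a phosphatase that prefers the stress kinases JNK and p38, went the other way, from 93.2, 107 and 81.2 to 785, 752, 677 and 733 (2.97 ± 0.12 SE, adjusted p = 2.85e-13). Lztr1, an adaptor that sends RAS proteins to degradation, also rose, by 0.82 ± 0.06.

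Transcription factors downstream of ERK were mostly lower. Among 21 tested members 14 were lower and 5 higher, with a median of -0.99. Etv4, a PEA3 factor of the ETS family, had values of 154, 177 and 168 under DMSO and 1 read in 4 combination libraries, which gives a ratio of 0.00146 (95% exact interval 3.68e-05 to 0.00813, counting error only). Fosl1, the FRA1 subunit of AP-1, went from 997, 978 and 895 to 16.1, 15.4, 20.2 and 22.1 (-5.64 ± 0.14 SE, adjusted p = 2.83e-16), and Egr1, an immediate early zinc finger factor, from 277, 268 and 298 to 6.68, 4.4, 13 and 9.46 (-5.00 ± 0.25). In both genes all 4 treated libraries lay far below the 3 controls. Myc, which drives growth and ribosome production, went from 1498, 1484 and 1513 to 164, 147, 132 and 113 (-3.43 ± 0.12). The AP-1 members moved apart: Fos fell by 3.02 and Maff, a small MAF factor, by 2.59, whereas Jun rose by 1.35 ± 0.07 and Junb by 0.59 ± 0.11. Atf3, a factor of the stress response, rose from 108, 118 and 95.7 to 703, 689, 672 and 808 (2.73 ± 0.10 SE, adjusted p = 2.47e-14).

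Most ERBB ligands fell and 2 ERBB receptors rose. Of 14 genes of this family tested, 9 were lower and 3 higher. Areg, the EGFR ligand amphiregulin, had values of 340, 308 and 272 and then 8.35, 7.69, 1.44 and 4.73 (-5.72 ± 0.34 SE, adjusted p = 1.61e-10). Ereg, epiregulin, went from 524, 498 and 528 to 105, 100, 107 and 131, and Nrg1, the ligand of ERBB3, from 395, 380 and 385 to 73.5, 69.3, 72 and 80.4. Their log2 fold changes were -2.22 ± 0.12 and -2.38 ± 0.10. Of the other ligands Hbegf, Btc and Tgfa fell by 1.12, 0.47 and 0.24, Nrg4, a ligand of ERBB4, rose by 0.80 ± 0.30 (0.76, adjusted p = 0.0666, without DMSO replicate 1, and also not called without DMSO replicate 2 or combination replicate 3), and Epgn and Egf were not called (-0.58 ± 0.44 and -0.25 ± 0.33, adjusted p = 0.24 and 0.501). The receptors moved little by comparison: Erbb3 rose by 1.16 ± 0.10 and Erbb2 by 0.57 ± 0.07, while Egfr fell by 0.34. Errfi1, an inhibitor that binds the EGFR kinase domain, fell by 1.97, and Lrig1, which promotes receptor degradation, by 1.06. Among other receptor tyrosine kinases 5 of 15 were higher and 5 lower, near the shares over all genes (36.3% and 36.1%). Epha2, an ephrin receptor, went from 3044, 3022 and 2959 to 832, 755, 720 and 689 (-2.01 ± 0.07) and Axl, the GAS6 receptor, from 6627, 6828 and 7000 to 2300, 2188, 2156 and 2162 (-1.63 ± 0.06). The collagen receptor Ddr1 and the insulin receptor Insr rose by 1.62 ± 0.07 and 1.10 ± 0.11.

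The largest changes with a mean of at least 50 lay partly outside these groups. On the lower side were Il1a, Il24, Etv4, Dusp6, Spp1, Emp1, Slc4a11, Areg, Csf3, Fosl1, Cmah and Fgfbp1. Spp1, the secreted phosphoprotein osteopontin, went from 2412, 2364 and 2303 to 31.7, 28.6, 27.4 and 18.9 (-6.44 ± 0.12 SE, adjusted p = 1.35e-17). Emp1, a tetraspan membrane protein, went from 5545, 5422 and 5358 to 104, 79.1, 38.9 and 70.9 (-6.28 ± 0.24), and Fgfbp1, which releases FGF from the matrix, from 788, 817 and 694 to 26.7, 16.5, 11.5 and 20.5 (-5.33 ± 0.19). In each of the 3 every treated library lay far below the controls. On the higher side were Fbln7, Parm1, Tmem140, Agt, Mmp15, Trp53inp2, Chdh, Prr15l, Coro6, Dhrs3, Fam214b and Vwa7. Parm1, a mucin-like membrane protein, went from 76, 81.1 and 99.6 to 2978, 3252, 3127 and 3450 (5.22 ± 0.09 SE, adjusted p = 6.78e-18), the lowest adjusted p of the table together with Trp53inp2, an autophagy protein (145, 118 and 117, then 2716, 3052, 2990 and 2849). Mmp15, a membrane-bound metalloproteinase, went from 372, 378 and 446 to 8388, 9383, 9805 and 9792 (4.55 ± 0.09). Fbln7, a fibulin of the matrix, was near 0 in the controls (0.784, 1.45 and 1.93) and reached 154, 136, 115 and 165, so its size depends on few control reads (8 in 3 libraries).

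Cell cycle genes fell as a block. Ccnd1, cyclin D1, which opens the way from G1 to S phase with CDK4, had values of 7329, 7481 and 7454 under DMSO and 508, 416, 358 and 331 under the combination (-4.22 ± 0.10 SE, adjusted p = 2.84e-16). Cdk4 fell by 1.16. Cdkn2b, the CDK4 inhibitor p15, rose from 124, 125 and 97.6 to 432, 412, 347 and 389 (1.77 ± 0.12) and Rbl2, the pocket protein p130 of resting cells, by 0.69 ± 0.09. Cdkn1a and Cdkn1b, which encode p21 and p27, were not called: Cdkn1a had 190, 171 and 159 and 133, 146, 154 and 222 with overlapping groups, and the log2 fold changes were -0.10 ± 0.17 (adjusted p = 0.588) and -0.13 ± 0.06 (adjusted p = 0.0584; -0.15 and 0.0457 without combination replicate 2). In the whole list of D cyclins and CDK inhibitors 8 of 15 tested members were lower and 3 higher.

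Of 43 genes of DNA replication and S phase 42 were lower and none higher, with a median of -2.57. Gins2, a subunit of the replicative helicase, was the exception (286, 281 and 259, then 254, 258, 325 and 281, log2 fold change 0.02 ± 0.11, adjusted p = 0.899), and its groups overlapped. Cdc6, which loads the MCM helicase at origins, went from 397, 390 and 363 to 25.1, 22, 20.2 and 17.3 (-4.13 ± 0.13 SE, adjusted p = 5.69e-15). The helicase subunits Mcm3 and Mcm5 went from 1761, 1777 and 1704 to 158, 125, 121 and 132 and from 1744, 1778 and 1559 to 136, 121, 125 and 109. Uhrf1 and Dnmt1, which copy DNA methylation onto the new strand, fell by 3.99 and 2.80. Every treated library lay below every control library for 42 of the 43 genes. Replication genes are textbook targets of E2F factors, and 3 stretches of promoter from RefSeq (GRCm38.p6, 80 bases each, 5′ to 3′ on the gene's strand) show the E2F letters of genes that moved together, with the match in capitals.
Cdc6 (chr11:98907977-98908056, plus strand): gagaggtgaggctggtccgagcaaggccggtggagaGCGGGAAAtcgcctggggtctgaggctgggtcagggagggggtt
Mcm5 (chr8:75109324-75109403, plus strand): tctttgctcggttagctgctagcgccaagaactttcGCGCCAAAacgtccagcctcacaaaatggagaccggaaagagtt
Mcm3 (chr1:20820263-20820342, minus strand): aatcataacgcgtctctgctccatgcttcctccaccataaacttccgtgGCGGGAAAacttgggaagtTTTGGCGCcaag
The letters searched were TTTCCCGC and TTTGGCGC on both strands, in the 300 bases from 250 before to 50 after each start in the table. They were found in 12 of 35 replication genes with a promoter entry (34.3%) and in 3.39% of the promoters of all 9943 genes tested that have an entry. Members with and without a match had median log2 fold changes of -2.75 and -2.56, and of the 325 other genes with a match 173 were lower and 75 higher. A match describes letters and is not a measured site.

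Mitosis genes had the lowest median of the lists, -3.27, a 9.65-fold fall at the median: of 40 tested 39 were lower and 1 higher, and in all 40 the groups did not overlap. Ccna2, cyclin A2, went from 3506, 3580 and 3357 to 298, 229, 248 and 238 (-3.78 ± 0.07 SE, adjusted p = 1.43e-17). Bub1b, a kinase of the spindle checkpoint, went from 1320, 1275 and 1364 to 98.6, 95.6, 87.8 and 86.7, and Incenp, which targets Aurora B to centromeres, from 2153, 2082 and 2167 to 236, 225, 202 and 227. The log2 fold changes were -3.83 ± 0.07 and -3.26 ± 0.06. Ect2, which directs RhoA in cytokinesis, fell by 3.86. Pttg1, securin, was the member that rose, from 213, 235 and 162 to 299, 308, 278 and 257 (0.50 ± 0.13 SE, adjusted p = 0.00181). Mitotic promoters often carry a cell cycle homology region, and the stretches below (RefSeq, GRCm38.p6, 80 bases each) mark its core TTTGAA in capitals.
Mki67 (chr7:135716453-135716532, minus strand): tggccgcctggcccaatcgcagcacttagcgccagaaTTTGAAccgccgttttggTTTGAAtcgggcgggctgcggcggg
Ect2 (chr3:27153950-27154029, minus strand): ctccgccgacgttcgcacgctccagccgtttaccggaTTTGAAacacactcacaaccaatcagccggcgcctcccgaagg
Bub1b (chr2:118598181-118598260, plus strand): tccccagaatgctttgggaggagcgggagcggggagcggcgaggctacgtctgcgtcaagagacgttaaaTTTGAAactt
The letters TTTGAA, on either strand, occurred in 23 of 33 mitosis genes with a promoter entry (69.7%) and in 14.6% of all promoters. The median log2 fold change was -3.31 in members with them and -3.25 in members without, and of the 1426 other genes with a match 575 were lower and 496 higher. In the list, 26 of 32 matches lay within 100 bases of the start. The search covered only 250 bases before to 50 after it, and the share over all promoters was not counted. For the other letters, each in its own list, it was 9 of 14 (E2F), 12 of 16 (E-box) and 15 of 28 (interferon-stimulated response element).

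**Figure D3:**
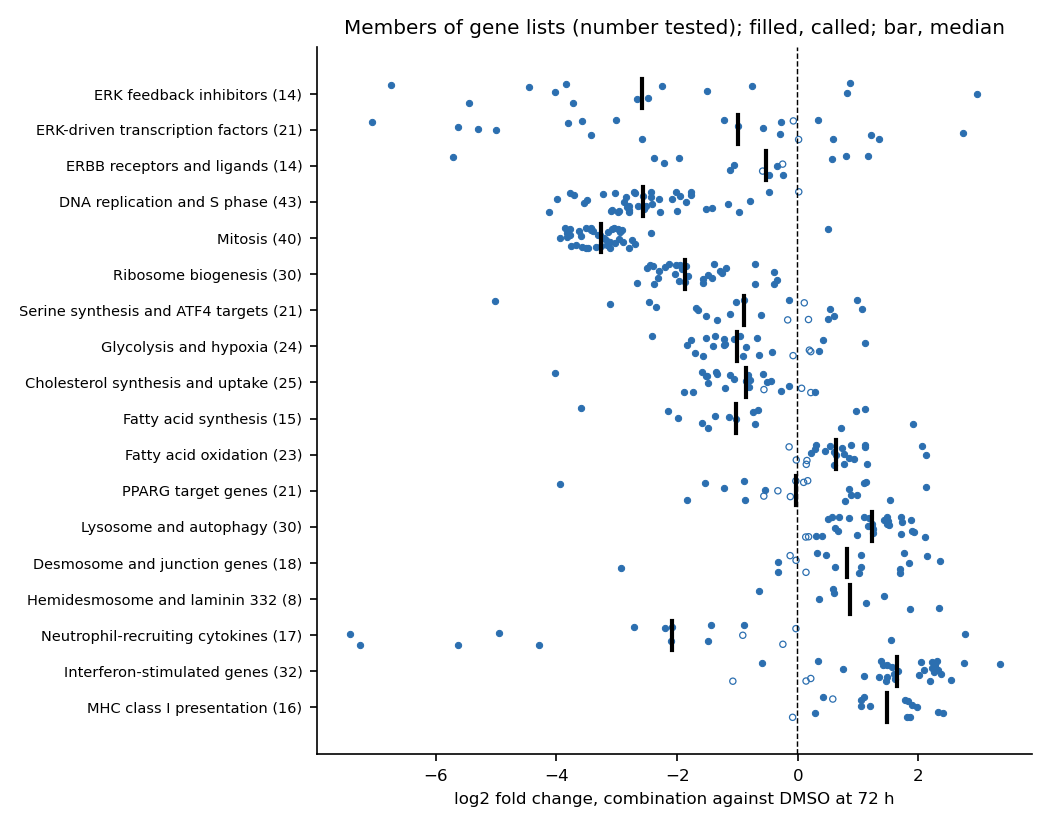
Each point is the log2 fold change at 72 h of 1 tested member of a gene list, filled when called; the bar is the list's median and the dashed line the median of all genes tested (-0.01). Mitosis genes sit lowest (median -3.27), and lysosome and interferon-stimulated genes sit to the right of 0 (1.23 and 1.64).

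Death and survival genes of the BCL2 family changed in both directions. Pmaip1, the BH3-only protein NOXA, rose from 388, 362 and 383 to 4090, 3274, 3376 and 3280 (3.21 ± 0.08 SE, adjusted p = 5.03e-16). Bmf, another BH3-only protein, went from 25.9, 26.7 and 26.1 to 121, 124, 157 and 159 (2.36 ± 0.13). Both antiapoptotic genes Bcl2 and Bcl2l1 fell, Bcl2 from 491, 460 and 593 to 43.4, 62.7, 41.7 and 34.7 (-3.49 ± 0.16) and Bcl2l1 by 1.39, whereas Mcl1 rose by 0.68 ± 0.06. Bcl2l11, which encodes BIM, was not called (0.09 ± 0.11, adjusted p = 0.443). Over the list 9 of 16 tested members were higher and 4 lower. Of 21 p53 target genes tested 14 were higher and 4 lower, including Trp53inp1, an antiproliferative stress protein (150, 106 and 157, then 1239, 1269, 1352 and 1308), and Btg2, a regulator of mRNA decay (104, 95.6 and 91.8, then 685, 595, 703 and 662). Mdm2, the p53 ligase and a standard target, moved by 0.25 ± 0.07, and Aen, a nuclease induced by p53, fell by 1.30.

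Genes of biosynthesis fell with the cell cycle. All 30 ribosome biogenesis genes were lower, with a median of -1.87. Dkc1, which pseudouridylates ribosomal RNA, went from 1711, 1659 and 1669 to 280, 265, 261 and 257 (-2.66 ± 0.06 SE, adjusted p = 7.1e-17), and Mybbp1a and Nolc1, nucleolar proteins, fell by 2.44 and 2.40. In the list of serine synthesis and ATF4 targets 13 of 21 were lower and 5 higher. Its enzymes Psat1 and Phgdh went from 3706, 3631 and 3413 to 437, 384, 399 and 429 and from 4554, 4808 and 4079 to 1583, 1424, 1316 and 1403 (-3.12 ± 0.07 and -1.65 ± 0.08), and the folate enzymes Shmt2 and Mthfd2 fell by 2.47 and 1.69. Atf4 itself was not called (0.18 ± 0.08, adjusted p = 0.057), though it was under quantile normalisation (0.37) and without DMSO replicate 2 (0.23) or combination replicate 2 (0.20). Of 24 glycolysis and hypoxia genes 18 were lower and 3 higher: Hk2, hexokinase 2, went from 736, 734 and 851 to 130, 135, 154 and 159 (-2.41 ± 0.09), and Eno1, Ldha and the angiogenic factor Vegfa fell by 1.83, 1.58 and 1.52. Nuclear genes of the respiratory chain moved less, with 16 of 29 lower, 2 higher and a median of -0.30. The mitochondrially encoded mRNAs went the other way, 9 of 13 higher and none lower with a median of 0.99. Cytochrome oxidase subunit mt-Co1 had 75249, 73156 and 68793 under DMSO and 179762, 170069, 164242 and 177639 under the combination (1.26 ± 0.06). Under quantile normalisation the list's median was 0.50 with 7 higher, and mt-Co1 was at 0.20 and not called (adjusted p = 0.234).

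Sterol and fatty acid synthesis fell, and fatty acid oxidation rose. Of 25 genes of cholesterol synthesis and uptake 21 were lower and 1 higher, with a median of -0.86. Idi1, an isoprenoid enzyme, went from 2391, 2320 and 2323 to 668, 607, 592 and 662 (-1.89 ± 0.07 SE, adjusted p = 5.55e-14), and the groups lay apart. Insig1, a sterol sensor, fell by 1.50, and Srebf2, the transcription factor of the pathway, by 0.52. Ebp, a sterol isomerase, was the one called higher (0.29 ± 0.11), with overlapping groups, and the call was lost without DMSO replicate 3 (0.18, adjusted p = 0.16) and without combination replicate 1, 2 or 4. Among 15 genes of fatty acid synthesis 11 were lower, among them the desaturase Fads2 (812, 799 and 801, then 76.3, 74.7, 53.3 and 61.5, -3.59 ± 0.11) and Fasn, fatty acid synthase (-1.37 ± 0.07), and 4 were higher, among them Acss2, which makes acetyl-CoA from acetate (1.90 ± 0.15). Of 23 fatty acid oxidation genes 19 were higher and none lower. Cpt1a, the carnitine transferase that admits fatty acids to mitochondria, went from 628, 621 and 682 to 2649, 2736, 2816 and 3057 (2.13 ± 0.07 SE, adjusted p = 1.21e-14), and Acadvl and Slc25a20, a dehydrogenase and the carnitine carrier, rose by 1.15 ± 0.08 and 1.11 ± 0.08.

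Lysosome and autophagy genes rose together: 28 of 30 were higher and none lower, with a median of 1.23. Lamp2, a membrane glycoprotein of the lysosome, went from 1745, 1716 and 1764 to 6227, 6076, 6413 and 6993 (1.88 ± 0.06 SE, adjusted p = 5.93e-15). Hexa, a hexosaminidase, went from 563, 560 and 474 to 2205, 2218, 2257 and 2476 and Atp6v0d1, a subunit of the proton pump, from 572, 579 and 486 to 1815, 1751, 1782 and 1899. All treated libraries lay above all controls in these genes. Ctsd, a protease, and Mcoln1, a calcium channel, rose by 1.49 ± 0.07 and 1.24 ± 0.06. Tfeb, a regulator of lysosome genes, was itself not called (0.18 ± 0.16, adjusted p = 0.334). Such genes are known for an E-box in their promoters, marked here in capitals (RefSeq, GRCm38.p6, 80 bases each).
Atp6v0d1 (chr8:105566025-105566104, minus strand): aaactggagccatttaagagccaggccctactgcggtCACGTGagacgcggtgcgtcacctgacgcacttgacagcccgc
Ctsd (chr7:142387998-142388077, minus strand): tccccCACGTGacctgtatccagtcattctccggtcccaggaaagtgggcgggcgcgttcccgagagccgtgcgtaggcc
Mcoln1 (chr8:3500411-3500490, plus strand): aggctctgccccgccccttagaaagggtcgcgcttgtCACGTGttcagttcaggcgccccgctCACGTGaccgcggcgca
The palindrome CACGTG was in 10 of 23 lysosome genes with a promoter entry (43.5%) and in 11.6% of all promoters. It also lay in 8 of 26 ribosome biogenesis promoters (30.8%), genes that all fell. Lysosome genes with and without it had median log2 fold changes of 1.04 and 1.48.

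The PPARG axis showed no common direction. Pparg itself had values of 58, 79.6 and 72.5 under DMSO and 88.5, 59.4, 70.5 and 82 under the combination and was not called (0.10 ± 0.17, adjusted p = 0.616). Its partner Rxra was at 0.17 ± 0.07 (adjusted p = 0.0489) with overlapping groups, and the call was lost with several single libraries left out (0.14, adjusted p = 0.177, without DMSO replicate 1). The coactivator genes Ncoa1 and Ppargc1b changed by 0.66 ± 0.09 and -1.05 ± 0.19. Of 32 PPARG target genes 21 were measurable, and 8 were higher, 7 lower and 6 not called, with a median of -0.03. Fabp4, the adipocyte fatty acid binding protein, was too low to test (3.92, 4.07 and 1.93, then 0, 1.1, 0 and 0), as were Pdk4 and Cd36. Angptl4, a lipase inhibitor and standard PPAR target, had 254, 249 and 211 and 251, 198, 163 and 156 with overlapping groups (-0.33 ± 0.15, adjusted p = 0.0554). It was called lower without combination replicate 1 (-0.47, adjusted p = 0.00454) or without DMSO replicate 3 (-0.41, adjusted p = 0.0343). The lipid droplet genes Plin2 and Hilpda fell by 0.89 and 1.54. Fabp5, the epidermal fatty acid binding protein, fell from 1329, 1340 and 1056 to 115, 89, 59 and 66.2 (-3.94 ± 0.19 SE, adjusted p = 1.53e-10). Acsl1, which activates fatty acids, and Dgat1, which completes triglycerides, rose by 1.54 ± 0.07 and 1.09 ± 0.08.

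Luminal, basal and squamous lists each held genes called higher and genes called lower, and no difference between the classes was tested. Of 10 tested genes on the list of uroplakins and luminal keratins 7 were higher and 3 lower, with a median of 0.89. Of 13 luminal regulators tested 6 were higher and 3 lower. Foxa1, a pioneer factor of luminal urothelium, went from 938, 910 and 962 to 2170, 2308, 2066 and 2175 (1.22 ± 0.06 SE, adjusted p = 1.15e-12), Gata6 rose by 1.07 ± 0.13 and Gata3 by 0.26 ± 0.08, while Grhl3, a factor of umbrella cells, fell by 0.82. Uroplakins, the plaque proteins of the luminal surface, stayed near the detection limit: Upk2 had 7.84, 8.72 and 9.67 and 25.6, 27.5, 17.3 and 14.2 (1.14 ± 0.44), Upk1a had 6.27, 5.52 and 2.9 and 9.47, 15.4, 11.5 and 17.3 (1.31 ± 0.45), and Upk3a was at 0 in all 7 libraries. Upk1a lost its call without DMSO replicate 3 (1.03, adjusted p = 0.077), and Upk2 with any of 4 libraries left out (1.00 to 1.14). The simple keratins parted, with Krt19 going from 1381, 1264 and 977 to 5843, 4750, 4435 and 4109 (1.99 ± 0.12) and Krt18 from 4141, 4213 and 3613 to 1417, 1338, 1389 and 1335 (-1.54 ± 0.08). Of 12 basal genes tested 7 were higher and 4 lower. Krt17, a keratin of stressed and basal epithelium, went from 47, 44.4 and 27.1 to 393, 317, 289 and 375 (3.12 ± 0.17), whereas the basal surface proteins Cd44 and Cdh3 fell by 1.96 and 2.28. Krt14 was not called (-0.36 ± 0.20, adjusted p = 0.117), but it was lower without combination replicate 1, its highest treated library (-0.57, adjusted p = 0.000974). Squamous genes were mixed as well, 6 of 12 higher and 4 lower. Sprr1a, a cornified envelope precursor, rose from 94, 114 and 91.8 to 2103, 1276, 587 and 487 (3.22 ± 0.43), with a wide spread between the treated libraries.

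Adhesion genes of epithelium were mostly higher. Of 18 desmosome and junction genes 12 were higher and 3 lower, with log2 fold changes from -2.93 to 2.36. Cldn4, a tight junction claudin, went from 1579, 1621 and 1310 to 7546, 7729, 7778 and 7710 (2.36 ± 0.07 SE, adjusted p = 1.53e-15), and F11r, the junctional adhesion molecule A, from 835, 884 and 794 to 2697, 2727, 2699 and 2722 (1.69 ± 0.06). Cdh1, E-cadherin, went from 3270, 3230 and 3633 to 6395, 6905, 7038 and 6963 (1.02 ± 0.07). The epithelial gene Epcam was called lower, but not under quantile normalisation (-0.15, limma adjusted p = 0.0543). Of 8 genes of the hemidesmosome and of the laminin that is its anchor in the basement membrane, 7 were higher: the laminin chains Lamb3 and Lama3 rose by 2.34 ± 0.06 and 1.13 ± 0.09. Mesenchymal markers went lower, Vim from 3624, 3527 and 3123 to 1213, 1009, 882 and 1004 (-1.74 ± 0.09) and Fn1, fibronectin, by 1.18, but the 12 genes of the list on epithelial-mesenchymal transition stood at 5 higher and 5 lower, Zeb1 among the higher (0.30 ± 0.09; 0.22, adjusted p = 0.0551, without DMSO replicate 2). In the matrix, Timp2, a protease inhibitor, went from 4170, 4169 and 3930 to 23455, 23550, 22428 and 22989 (2.50 ± 0.06) and Col4a5, a basement membrane collagen, rose by 2.76 ± 0.07. Timp3 and Col8a1 fell by 2.73 and 4.67. In the remaining lists of cell shape and matrix, actin genes had 9 of 15 higher and 2 lower, matrix proteases 7 of 14 and 6, collagens 3 of 13 and 8, and YAP and TEAD targets 7 of 20 and 10.

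Ligands and readouts of other pathways changed in both directions. In the Wnt list 11 of 30 tested genes were higher and 11 lower, near the shares over all genes (36.3% and 36.1%). Besides Wnt4, Wls, the carrier of Wnt proteins to the cell surface, went from 1223, 1186 and 1240 to 4169, 3884, 3946 and 4050 (1.72 ± 0.05), and the receptor Fzd6 rose by 1.54 ± 0.07. Wnt7a and Axin2, a target of canonical Wnt signalling, fell by 1.35 and 1.54. In the Notch list 7 of 13 were lower and 1 higher, and the ligand Jag2 and the Notch target Nrarp went from 1132, 1122 and 1177 to 358, 379, 351 and 355 and from 312, 308 and 297 to 44, 52.8, 41.7 and 50.4. The Id genes, inhibitors of bHLH factors and targets of BMP signalling, moved apart: Id2 rose from 153, 155 and 128 to 1322, 1126, 1284 and 1329 (3.12 ± 0.10 SE, adjusted p = 6.39e-15) and Id3 from 353, 380 and 250 to 1456, 1273, 1343 and 1398 (2.08 ± 0.11), whereas Id1 had 444, 468 and 392 and 451, 365, 415 and 377 and was not called (adjusted p = 0.298). Of the 18 tested genes of TGF-beta and BMP signalling 8 were higher and 7 lower. Among retinoid genes 6 of 11 were lower and 3 higher, with Dhrs3, a retinal reductase, rising from 39.2, 42.1 and 48.3 to 712, 653, 607 and 593 (3.86 ± 0.09). The detoxification list had 9 of 21 higher and 6 lower, also not far from the shares over all genes. Its members Cyp1b1 and Ephx1 rose by 2.19 ± 0.07 and 3.06 ± 0.10.

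Interferon-stimulated genes were higher under the combination, and the labels name no interferon among the agents. Of 32 tested 28 were higher and 1 lower, with a median of 1.64. Ddx58 and Ifih1, the cytosolic RNA sensors RIG-I and MDA5, went from 261, 252 and 282 to 1084, 1156, 1193 and 1094 (2.09 ± 0.07 SE, adjusted p = 1.09e-14) and from 87, 90.9 and 95.7 to 456, 432, 422 and 471 (2.27 ± 0.08). Irf7, a transcription factor of the interferon response, went from 25.1, 20 and 17.4 to 138, 154, 154 and 137 (2.76 ± 0.16). No treated library fell within the control range for these genes. Oasl1, an inhibitor of IRF7 translation, was the member called lower (-0.60 ± 0.20; -0.57, adjusted p = 0.0524, with DESeq2), and Mx1 was not called (-1.08 ± 0.67, adjusted p = 0.161), with combination values of 7.8, 18.7, 1.44 and 11. The promoters of many of these genes carry an interferon-stimulated response element, shown in capitals in 3 stretches (RefSeq, GRCm38.p6, 80 bases each).
Ifi44 (chr3:151749870-151749949, minus strand): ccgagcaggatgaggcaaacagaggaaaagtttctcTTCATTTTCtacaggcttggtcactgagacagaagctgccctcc
Gbp2 (chr3:142620569-142620648, plus strand): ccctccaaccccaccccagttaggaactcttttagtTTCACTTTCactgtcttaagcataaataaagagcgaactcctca
Gbp3 (chr3:142559964-142560043, plus strand): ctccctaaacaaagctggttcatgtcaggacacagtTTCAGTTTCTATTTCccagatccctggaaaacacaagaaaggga
The core GAAANNGAA, on either strand, was found in 15 of 24 members with a promoter entry (62.5%) and in 8.62% of all promoters. Spelled with 2 more letters at its end, the element was in 13 of the 24 (54.2%) and in 1.13% of all. Members with and without the core had median log2 fold changes of 2.01 and 1.38. Of the 842 other genes with the core 341 were higher and 304 lower, with a median of 0.08.

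Antigen presentation rose beside them. Of 16 genes of MHC class I presentation 14 were higher and none lower, with a median of 1.49. B2m, the light chain of class I molecules, went from 2468, 2559 and 1981 to 12392, 12293, 10633 and 11073 (2.32 ± 0.10 SE, adjusted p = 3.05e-13) and Tapbp, tapasin, from 1209, 1164 and 1181 to 5976, 6103, 6494 and 6539 (2.40 ± 0.07). The heavy chain genes H2-K1 and H2-D1 rose by 1.98 ± 0.07 and 1.83 ± 0.07, though reads of these near-identical genes may be divided between them. Nlrc5, the transactivator of class I genes, rose by 1.05 ± 0.13. All 4 testable genes of the 8 on the MHC class II list were higher, from low levels, with a median of 1.95. Cd74, the invariant chain, went from 3.13, 4.36 and 2.9 to 54.6, 44, 41.7 and 39.4 (3.37 ± 0.40), and H2-Aa was at 0 throughout.

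Cytokines that recruit neutrophils fell, with 12 of 17 tested lower, 2 higher and a median of -2.08. Il1a, an alarmin of epithelial cells, had values of 523, 513 and 540 and then 1.67, 2.2, 1.44 and 3.15 (-7.43 ± 0.22 SE, adjusted p = 2.29e-15). It had the lowest log2 fold change of value + 1 of all genes tested. Its size and this rank depend on few treated reads. Csf3, the granulocyte growth factor, went from 383, 374 and 373 to 6.13, 4.4, 7.2 and 9.46 (-5.64 ± 0.31) and Lif, an IL-6 family cytokine, from 950, 929 and 966 to 242, 242, 194 and 206 (-2.10 ± 0.10). For Il24 only 3 reads remained in 4 libraries, a ratio of combination to DMSO of 0.00366 (95% exact interval 0.000754 to 0.0107, counting error only). Chemokines of the CXC family fell with a spread between treated libraries: Cxcl5 went from 19333, 19545 and 16819 to 7157, 5194, 3521 and 2807 (-2.08 ± 0.27 SE, adjusted p = 2.23e-05), Cxcl3 from 8890, 9647 and 8085 to 5089, 3574, 2800 and 2228 (-1.44 ± 0.21) and Ppbp from 6629, 7313 and 5693 to 378, 263, 158 and 125 (-4.94 ± 0.31). In all 3 genes replicate 1 was the highest and replicate 4 the lowest treated library. Cxcl2 was not called (-0.03 ± 0.13, adjusted p = 0.848). Il18 rose from 41.5, 50.3 and 43.5 to 344, 273, 335 and 309 (2.78 ± 0.13), and Csf1, the macrophage growth factor, by 1.55 ± 0.07. Of 9 chemokines for lymphocytes and monocytes 5 were lower and 1 higher, Ccl2 going from 1423, 1708 and 1379 to 800, 746, 574 and 605 and Cxcl16 rising by 1.24 ± 0.06.

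Most changes called at 24 h were called at 72 h as well. At 24 h 30.2% of all genes were called higher and 28.9% lower, and the log2 fold changes at both times correlated across genes (Pearson's r = 0.83, Spearman's rho = 0.85), which are not independent replicates. The 3641 genes higher at both times were 73.5% of those higher at 72 h and 88.3% of those higher at 24 h, and the 3515 lower at both were 71.5% and 89.1%. The median size of the change was 0.42 at 24 h and 0.65 at 72 h. The difference of the effects was tested in 1 fit: 17% of all genes had a higher effect at 72 h and 17.1% a lower one. Of 4423 genes called at 72 h with a called difference, 4360 had an effect further in their 72 h direction than at 24 h and 63 a smaller one. A called difference was found for 4654 genes in all. Those not called at 72 h are left out of this count, which favours larger effects at 72 h.

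Of all 13640 genes tested 10454 had a smaller change at 24 h than at 72 h. So had all 14 ERK feedback genes, 41 of 43 replication genes and all 40 mitosis genes. Their medians at 24 h were -1.33, -1.73 and -1.76. Dusp6 was already at -4.84 and Etv5, a PEA3 factor, at -5.55 (72 h -5.30 ± 0.44), whereas Mki67 went from -1.95 to -3.94 ± 0.09. Cholesterol genes were not lower as a group at 24 h. Their median was 0.01 at 24 h, with 7 called higher and 4 lower, and 22 of 25 had a called fall in effect from 24 h to 72 h. Hmgcs1, the synthase at the start of the pathway, changed by 0.29 at 24 h and by -1.36 ± 0.09 at 72 h, a difference of -1.65 (adjusted p = 2.92e-08). Idi1 changed by -0.07 and -1.89 ± 0.07 (difference -1.82, adjusted p = 8.27e-10). A difference of effects also holds any change of the DMSO libraries between the times. Idi1 went from 1345, 1485 and 1435 under DMSO at 24 h to 2391, 2320 and 2323 at 72 h. Under the combination it went from 1183, 1415, 1404 and 1429 to 668, 607, 592 and 662. Between DMSO at 72 h and at 24 h, 5012 of 13640 genes had an unadjusted limma p under 0.05.

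The effect on single genes differed between the times, and some changed sign, Ccl2, Krt4 and Lor among them. Ccl2, a monocyte chemokine, was higher at 24 h (1.18) and lower at 72 h (-1.15 ± 0.11), a difference of -2.33 (adjusted p = 7.21e-09). Krt4, a mucosal keratin, and Lor, loricrin, had 24 h values of 0.56 and 0.46 and 72 h values of -1.82 ± 0.22 and -1.49 ± 0.20. Their differences were -2.38 and -1.96 (adjusted p = 1.6e-05 and 2.98e-05). Smad6, an inhibitor of BMP signalling, was at -0.00 and then 2.01 ± 0.14 (difference 2.01, adjusted p = 5.74e-07), and Id2 at 0.66 and then 3.12 ± 0.10 (difference 2.45, adjusted p = 1.22e-09). Jup, plakoglobin, was not called at 24 h (-0.07) and rose at 72 h (1.06 ± 0.05, difference 1.12, adjusted p = 7.68e-09). Cxcl5 was at 0.17 at 24 h, and its difference was -2.25 (adjusted p = 0.000823). Its DMSO values also moved, from 8175, 11146 and 8813 at 24 h to 19333, 19545 and 16819 at 72 h. Its combination values went from 8808, 11355, 10682 and 11091 to 7157, 5194, 3521 and 2807.

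**Figure D4:**
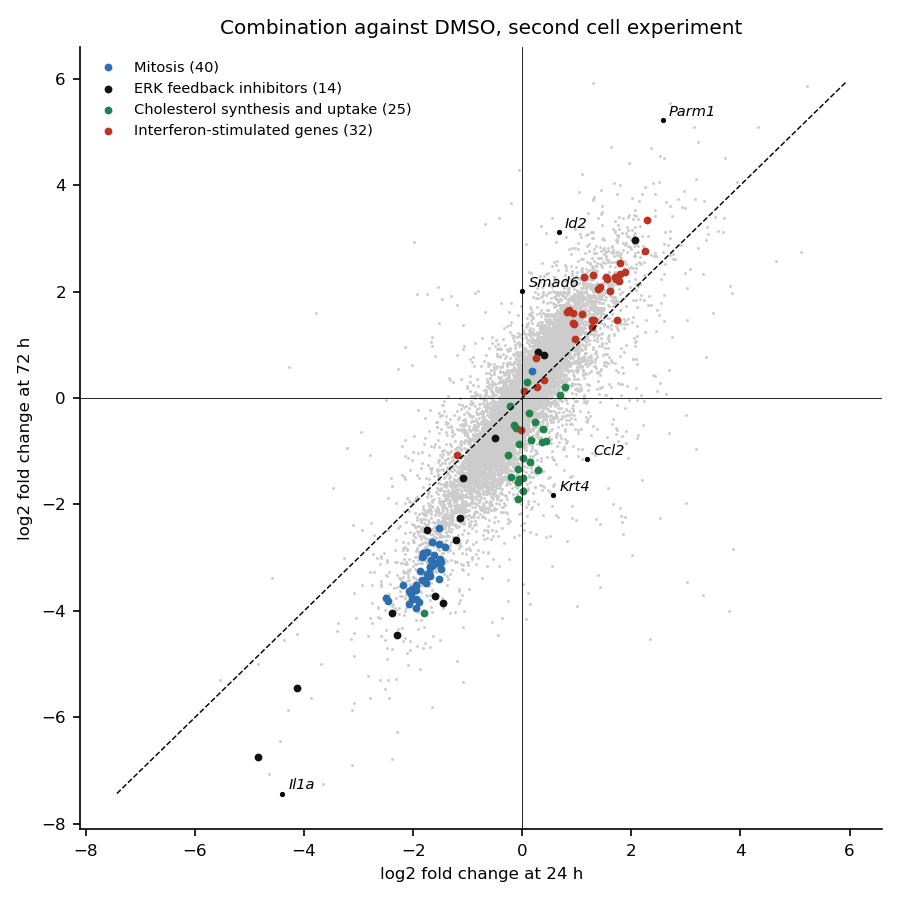
Log2 fold change of the combination against DMSO at 24 h (x axis) and 72 h (y axis) for the tested genes, grey, with members of 4 lists coloured; the diagonal marks equal effects. 39 of the 40 mitosis genes lie below the diagonal, all but Pttg1, and 22 of the 25 cholesterol genes lie below 0 on the y axis.

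The first cell experiment measured the same treatment and time in other libraries. There 36.3% of 14220 genes were called higher and 36.2% lower. Of genes tested in both, 3620 were higher in both (75.7% of those in the second and 76.5% of those in the first) and 3636 lower in both (80.8% and 75.7%). Opposite calls were made for 241 genes higher in the second experiment (5.04%) and 280 lower in it (6.22%). Across genes r was 0.77 and rho 0.79. The test of the difference of effects called 27.3% of 12236 genes higher in the second experiment and 27.7% lower. Experiment, normalisation and batch cannot be told apart in this difference, since the tables were normalised separately.

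Sizes were larger in the second experiment for the cell cycle. The mitosis median was -1.48 in the first experiment against -3.27, and 39 of 40 members differed in the lower direction. For replication it was -1.10 against -2.57 (41 of 43 lower), and for ribosome biogenesis -1.01 against -1.87 (27 of 30 lower). Lysosome genes had a median of 0.56 in the first experiment and 26 of 30 differed in the higher direction. Cholesterol genes were opposite: in the first experiment 17 of 25 were called higher and 3 lower, with a median of 0.33, and 23 of 25 differed in the lower direction. Idi1, for one, was at 0.37 in the first experiment and -1.89 ± 0.07 in the second (difference -2.26, adjusted p = 4.13e-15). Other lists differed too. In the first experiment YAP and TEAD targets had 13 of 20 higher and 6 lower (median 0.52, against -0.20 in the second). Chemokines for lymphocytes and monocytes had 5 of 9 higher and 2 lower (0.62 against -0.94). Cytokines that recruit neutrophils had 7 of 16 higher and 8 lower (-0.60 against -2.08).

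Several genes changed in 1 experiment or went opposite ways. Cmah, which hydroxylates sialic acid, fell from 2799, 2650 and 3090 to 72.4, 70.4, 56.1 and 56.7 in the second experiment (-5.46 ± 0.22) and was at -0.13 in the first (difference -5.34, adjusted p = 5.46e-14). Ppbp fell in the second and was at 0.61 in the first (difference -5.56, adjusted p = 5.81e-09). The differences for Krt4 (3.16 in the first) and Timp3 (1.10 in the first) were -4.99 and -3.83 (adjusted p = 1.27e-12 and 8.28e-11). Angptl4 rose in the first experiment (2.86) and was not called in the second (difference -3.19, adjusted p = 4.74e-12), and the same held for Krt14 (2.30, difference -2.66, adjusted p = 1.4e-07). Atf3 rose by 0.20 in the first and by 2.73 ± 0.10 in the second (difference 2.54, adjusted p = 5.64e-13). Nrg1 changed by -0.29 in the first (difference -2.08, adjusted p = 5.64e-13), and Egfr rose there (0.64, difference -0.98, adjusted p = 2.05e-05). Among the largest changes of the second experiment, Il1a and Parm1 were at -7.58 and 4.66 in the first.

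**Figure D5:**
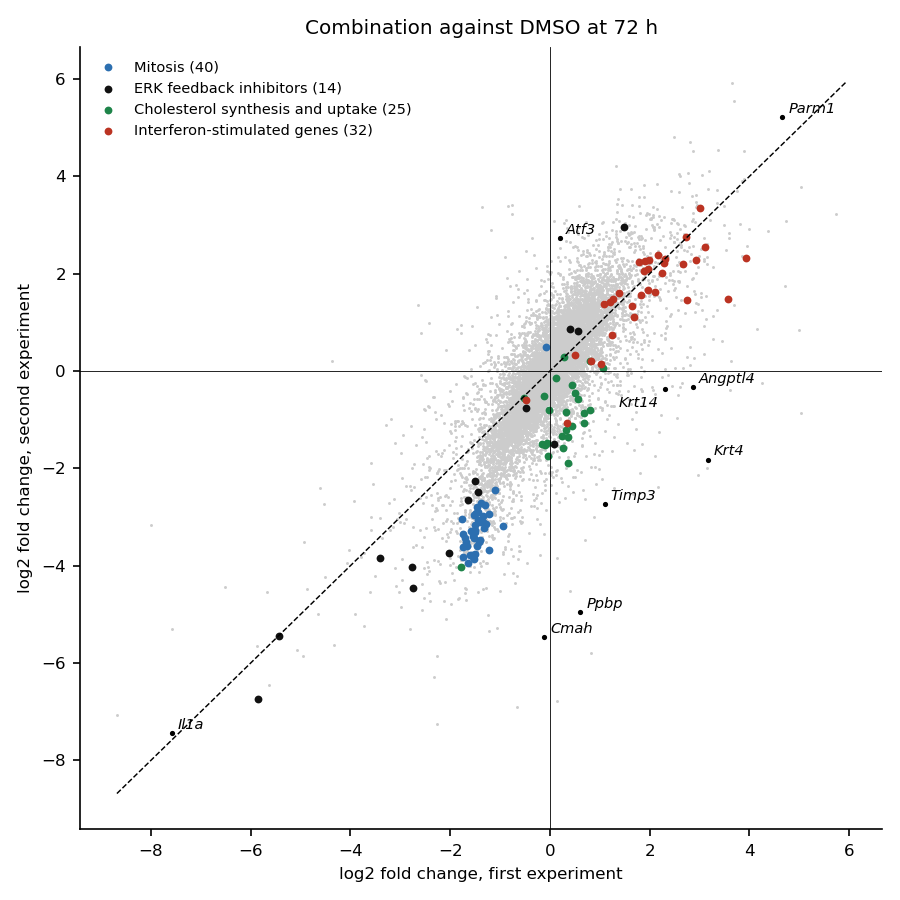
Log2 fold change of the combination against DMSO at 72 h in the first (x axis) and second (y axis) cell experiment for genes tested in both, grey, with members of 4 lists coloured and single genes named. Cmah and Ppbp lie far below the diagonal of equal effects. Of the 25 cholesterol genes 24 lie below it, and 17 of the 25 lie right of 0 on the x axis.

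Values of the single drugs come from the first experiment and share its DMSO libraries with the combination there, so their values are set side by side. Trametinib alone called 35.8% of 14414 genes higher and 35.3% lower. With rosiglitazone alone limma called 0 of 13459 genes (0%), and 904 had an unadjusted p under 0.05. For Dusp6 the log2 fold changes were -5.48 with trametinib, 0.10 with rosiglitazone and -5.86 with both, beside -6.74 ± 0.22 in the second experiment. Mki67 stood at -1.46, 0.08 and -1.65, and Wnt4 at 2.54, -0.15 and 2.49. For the interferon-stimulated gene Ddx58 the 3 values were 1.90, -0.00 and 1.96. Angptl4 had 1.83, 0.45 and 2.86, and Cpt1a 1.53, 0.30 and 1.89. In these 6 genes trametinib alone had the sign of the first experiment's combination, and rosiglitazone alone lay between -0.15 and 0.45. In the second experiment the combination value of Angptl4 was -0.33, and it was not called. The combination effect of the second experiment cannot be divided between the drugs from the libraries used here.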

How the data were processed

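The values are the signal that the authors deposited, normalised estimated read counts. In the second experiment each library had a single size factor, and 100% of its values could be turned back into whole reads within a tolerance of 0.1. In the first experiment the factors differed by gene, so reads were not recovered there. Per the submitters' processing notes the tools were bcl2fastq 2.19, kallisto 0.44.0 and DESeq2, with GRCm38.p6 (mm10); no role, strand setting or order is given. Kallisto divides reads between near-identical genes, so such families were left out of the largest changes. Per the labels' protocols RNA was extracted with miRNeasy, poly-A selected and prepared with TruSeq.

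Genes with a value of at least 10 in at least 3 libraries (5 in the first experiment) were tested on log2(value + 1) with limma 3.58.1 (trend and robust variance) over the 14 libraries of the second experiment, and p-values were adjusted by Benjamini-Hochberg over all genes tested. The difference between experiments joined 2 tables that were normalised separately. In the first experiment, 1651 entries of the rosiglitazone table whose deposited mean did not match their columns were left out, as were 26 date-named entries in the combination and trametinib tables. No pair of libraries shared more than 1.2% equal reads. The fit was run on simulated counts in which only a small share of genes changed. Such a run cannot test it where 72.4% of genes are called. edgeR 4.0.16 and DESeq2 1.42.0 on the recovered reads were alternatives. Intervals and floors cover counting error only.

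Named genes were the 5 markers, the 12 largest changes in each direction (mean of at least 50, groups apart), the members of 45 lists with the lowest adjusted p, and members with a known role. These genes and lists were chosen with earlier results of these data known. Promoters are from RefSeq, matched for 9943 of 13640 genes (72.9%). Results for a few genes are not reported here.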

Additional observations from a re-analysis of the deposited data

Results flagged for a closer look

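In 7 of 181 named genes with a combination mean of at least 10, 1 of the 4 combination libraries at 72 h lay far from the other 3. Chance flags about 1 in 20 groups. The high libraries had 38.9 for Maff (others 30.8 to 31.7), 4090 for Pmaip1 (3274 to 3376), 173 for Acss2 (122 to 125), 405 for Ncoa1 (346 to 356) and 838 for Ephx1 (727 to 730). The low libraries had 467 for Acadvl (521 to 530) and 742 for Fam214b (799 to 807).

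The effect of the combination at 72 h differed from that at 24 h for many named genes in the limma fit of all 14 libraries, and 9 are given here, chosen after their values were seen. On the log2 scale the difference, 72 h minus 24 h, was -1.82 for Idi1 and -1.65 for Hmgcs1, enzymes of cholesterol synthesis. It was -2.25 for Cxcl5 and -2.33 for Ccl2, both chemokines. It was -2.38 for Krt4 and -1.96 for Lor, genes of squamous epithelium. It was 2.45 for Id2, 2.01 for Smad6 and 1.12 for Jup. The highest adjusted p of these 9 was 0.000823 (Cxcl5).

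The effect at 72 h also differed between the second and the first cell experiment for many named genes, and 10 chosen in the same way are given. The difference, second minus first, was -2.66 for Krt14 and -4.99 for Krt4, both keratins. It was 2.54 for Atf3, -2.08 for Nrg1, -0.98 for Egfr and -2.26 for Idi1. It was -3.19 for Angptl4, -3.83 for Timp3, -5.56 for Ppbp and -5.34 for Cmah. The highest adjusted p of these 10 differences was 2.05e-05 (Egfr).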

How the results depend on the processing

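With an added requirement of a log2 fold change of at least 1 in size, 4290 genes were called, 1947 higher and 2343 lower. Leaving out 1 library at a time gave 9277 to 9959 calls at 72 h, 3995 to 4665 for the difference from 24 h and 6144 to 6669 for the difference from the first experiment. Without combination replicate 4, which stood apart, 9664 genes were called, 9484 of them shared with the full set. Of 4352 alternatives for 213 single-gene results, 4314 counted as the same, 28 lost a call and 10 gained one. With a call in either fit, 0 changed direction. Results called in neither fit counted as the same whatever their sign. The cause of lost and gained calls was not tested. Replicate numbers in this text follow the order in which the study lists the libraries of a group. The labels themselves give no replicate numbers, so no paired analysis was possible. Depth limits the genes near the minimum value.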
